A study of Caenorhabditis elegans with 4 samples.

Results

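The regions described here are the broad ZHP-3 peaks, namely every peak 1000 bp or more in width on a nuclear chromosome in the peak list deposited for the whole series, called the combined list below. They number 838 of 11840 nuclear peaks, or 7.08% of the list, and the other 11002 are called narrower peaks. They were chosen by their width in the combined list, so width and the score of that list are given as a description, with no test. The study was a chromatin immunoprecipitation and sequencing (ChIP-seq) experiment with 2 ChIP libraries, precipitated with 5 µg of an affinity-purified rabbit antibody to ZHP-3, and 2 libraries of input DNA, which were not analysed here. Both groups came from whole hermaphrodites of Caenorhabditis elegans strain fem-2(b245), genotype fem-2(b245)III, at 20 °C, fixed with formaldehyde at 1% for 10 min. All libraries share the fem-2 mutation, so no wild type or second condition stands against it. The stage label reads young adult with a germline, whereas the growth protocol describes gravid adults. Whether the replicates were grown as separate cultures is not stated, so their spread may be technical. Whole animals hold many tissues besides the germline, and peak lists hold no expression from which the tissue could be checked.

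ZHP-3 is a RING-finger protein that sits along the synaptonemal complex of paired meiotic chromosomes and later gathers at sites of crossing over, where it is required for crossovers to form. In this worm crossovers fall mostly on the outer parts, or arms, of each chromosome and are rare in the gene-dense centre. The product of fem-2 is a protein phosphatase that promotes male development, and its loss lets the germline make oocytes in place of sperm. Since no genome or annotation of the build used for these files (WormBase WS220) was used here, broad peaks are given by position and not by gene or sequence.

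Broad peaks were few but took a large part of the called sequence. They covered 1551 kb, which was 28.0% of the bases in the combined list. Their median width was 1450.5 bp (quartiles 1176 and 1973.5), against 309 bp (220 and 453) for narrower peaks, and the widest reached 11683 bp. There were 237 peaks of 1000 to 1199 bp, 215 of 1200 to 1499 bp, 183 of 1500 to 1999 bp, 119 of 2000 to 2999 bp and 84 of 3000 bp or more. The limit of 1 kb cut a continuous distribution. The 3 peaks just inside it were 1000, 1000 and 1001 bp wide with scores of 70.68, 56.33 and 114.8, and the 3 just outside it were all 999 bp wide with scores of 86.88, 39.82 and 39.2.

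Scores were set by the authors' peak caller, on a scale the files do not name. The median combined score was 59.1 in broad peaks (quartiles 27.6 and 102) and 11.5 in narrower ones (5.59 and 28.5). The 2 distributions overlapped, and 66 broad peaks, or 7.88%, scored below the median of the narrower ones. Among the 838 highest-scored peaks of the combined list, 292 were broad, or 34.8%. Within the broad peaks score and width were weakly related, with a Spearman's rho of 0.11 across the 838 peaks, compared with 0.65 across the 11002 narrower ones. These are values of 1 list, and its peaks are not independent replicates. The median score was 52.1 at 1000 to 1199 bp, 60.1 at 1200 to 1499 bp, 62.4 at 1500 to 1999 bp, 64.3 at 2000 to 2999 bp and 63.8 at 3000 bp or more. The classes from 1200 bp upwards therefore differed far less from each other than peaks differed within a class, where at 3000 bp or more the quartiles were 33.4 and 114.

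**Figure D1:**
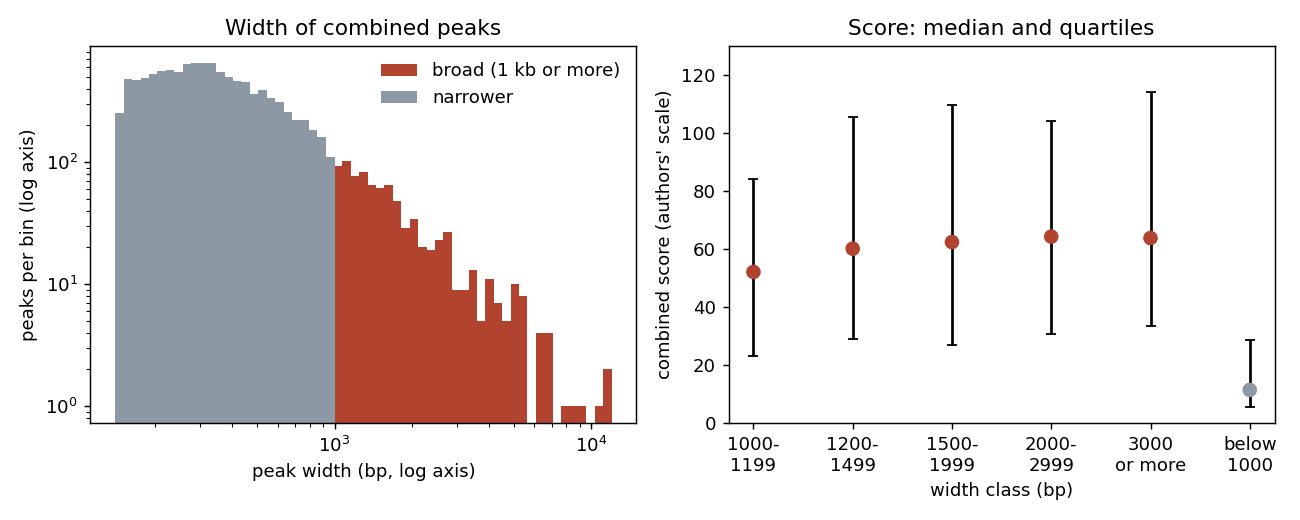
Left, number of combined peaks by width (both axes log scale), with broad peaks in red and narrower ones in grey. Right, the authors' combined score by width class, as points at the median with bars from the lower to the upper quartile. The 5 broad classes have medians between 52.1 and 64.3, and peaks below 1000 bp have a median of 11.5.

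Broad peaks were then looked up in the peak lists of the ChIP replicates, where an overlap of 1 bp or more counted as a match. Both replicate lists held a match for 735 of the 838, or 87.7% (Wilson 95% interval 85.3 to 89.8), compared with 39.0% of narrower peaks (38.1 to 39.9) and 42.4% of all combined peaks. Replicate 1 matched 752 broad peaks, where 48.6% of all combined peaks were matched, and replicate 2 matched 808, where 56.6% were. A further 73 broad peaks, or 8.71%, were found in replicate 2 alone, where 14.2% of all combined peaks were. Replicate 1 alone held 17, or 2.03%, where it held 6.19% of all combined peaks, and 13 broad peaks were in neither list. These 13 were 1.55% of the broad peaks, where 37.2% of all combined peaks had no match. These shares carry no test, because a wide peak has more bases to overlap and the 3 lists may come from the same reads. Counting error alone enters the intervals, as if each peak were independent.

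Matches differed by score. The broad peaks were divided at their score quartiles into 4 ranges. The lowest range (up to 27.6) had 124 of 210 matched in both lists, or 59.0%, against 18.7% of the 8181 narrower peaks in the same score range. Scores were not equal within this range, with a median of 14.8 in broad peaks and 7.76 in narrower ones. The 2 shares therefore differ in score as well as in width. In the second range the order turned, with 91.9% of broad peaks (interval 87.4 to 94.9) and 96.3% of narrower ones (95.3 to 97.1). Above a score of 59.1 every broad peak, 208 in the third range and 210 in the highest, was matched in both lists, and so was every one of the 766 and 270 narrower peaks of these ranges. Across width classes the share of broad peaks matched in both lists stayed between 85.7% at 1000 to 1199 bp and 89.3% at 3000 bp or more.

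The share of a peak's bases that lay under replicate peaks was taken as a second measure of the match. For broad peaks its median was 87.1% in replicate 1 (quartiles 63.1 and 96.8) and 91.4% in replicate 2 (72.3 and 98.1), a mean of 89.2 ± 3.0% (SD, n = 2). In the lowest score range the medians were 41.9% in replicate 1 and 78.7% in replicate 2. In the second they were 90.4% and 94.5%, in the third 89.4% and 92.3%, and in the highest 93.2% and 92.2%. By width class it was higher the wider the class, with 81.7% in replicate 1 and 83.7% in replicate 2 at 1000 to 1199 bp, and 95.4% in replicate 1 and 98.4% in replicate 2 at 3000 bp or more. Narrower peaks of the upper 3 score ranges had medians of 95.2% to 98.8%. Within each score range above 27.6, broad peaks were thus covered slightly less fully at the median than narrower ones in both replicates.

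Many broad peaks were cut into pieces in the replicate lists. Replicate 1 placed a single peak in 558 of them, 2 peaks in 157, 3 in 25 and 4 or more in 12. Replicate 2 placed a single peak in 590, 2 peaks in 178, 3 in 29 and 4 or more in 11. Of the matched broad peaks, 25.8% were split in replicate 1 (194 of 752, Wilson 95% interval 22.8 to 29.04) and 27.0% in replicate 2 (218 of 808, 24.03 to 30.1), whereas 1.02% and 1.61% of matched narrower peaks were. The split share differed by width class. At 1000 to 1199 bp 19 of 211 matched peaks were split in replicate 1 and 37 of 222 in replicate 2, and at 3000 bp or more 50.7% were in replicate 1 and 46.4% in replicate 2. A longer peak has more room for several pieces, so this is a description too. The mean split share over the replicates, 26.4 ± 0.84% (SD, n = 2), was 43.7% for peaks of 2000 bp or more and 13.0% when replicate peaks scoring below their own list's median were left out. Both lists split 116 broad peaks, while 78 were split in replicate 1 and not replicate 2, and 102 in replicate 2 and not replicate 1. The largest class, 457 peaks or 54.5%, was a single peak in each replicate list, with a median score of 73.8.

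Pieces of a split peak lie within 1 combined peak by definition, so the gaps between them are limited by its width and are only described. Between neighbouring pieces the median gap was 87.5 bp in replicate 1 (252 gaps) and 85 bp in replicate 2 (287 gaps), and 54.8% and 55.1% of these gaps were 100 bp or shorter. Over the whole lists, 219 of 5975 gaps in replicate 1 and 319 of 6995 in replicate 2 were that short. In the combined list no 2 neighbouring peaks were closer than 51 bp, whereas replicate 1 had 122 gaps of 50 bp or less and replicate 2 had 179. Gaps of that length made up 31.7% of the gaps inside split broad peaks in replicate 1 and 35.5% in replicate 2. Whether the combined list was made by joining calls that lie within 50 bp is not stated in the sources used here. Of the bases of split broad peaks that no replicate peak covered, 51.1% in replicate 1 and 53.4% in replicate 2 lay between pieces and the rest at the outer edges.

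**Figure D2:**
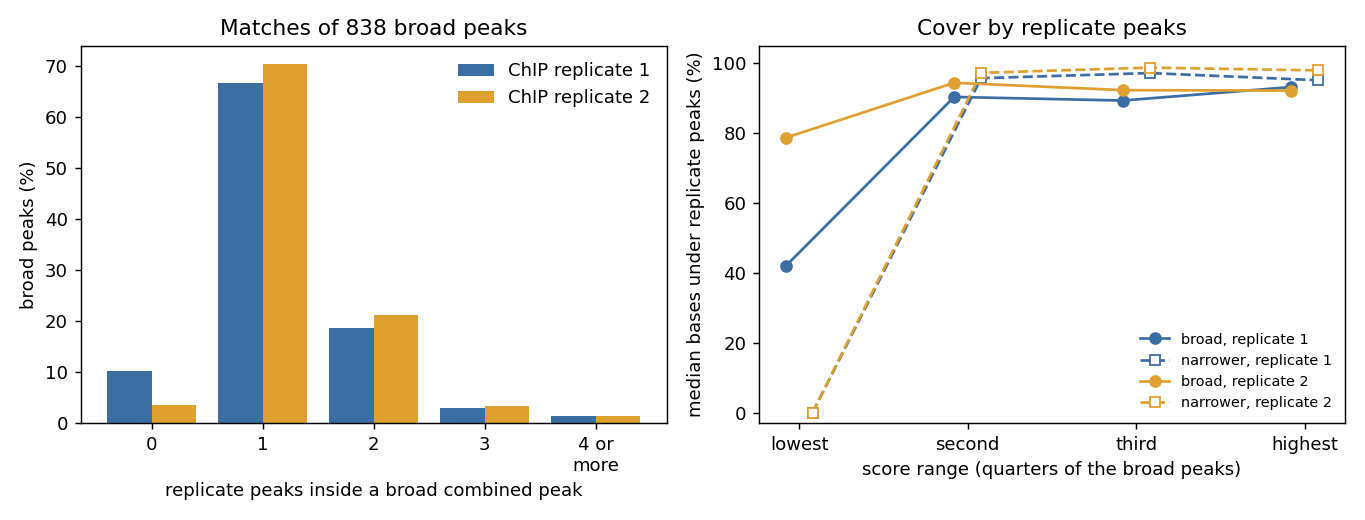
Left, percent of the 838 broad peaks that hold 0, 1, 2, 3 or at least 4 peaks of ChIP replicate 1 (blue) or replicate 2 (orange). Right, median percent of a combined peak's bases under peaks of each replicate, for broad peaks (filled circles, solid lines) and narrower peaks (open squares, dashed lines) in the 4 score ranges set by the quartiles of the broad peaks. The broad peaks of the lowest range have medians of 41.9% and 78.7% and the narrower ones of that range are at 0 in both replicates. Within that range the median score is 14.8 in broad and 7.76 in narrower peaks.

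Where a broad peak met a single peak in each replicate and neither touched another combined peak, edges could be compared directly, and 439 peaks qualified. The replicate peak was 0.95 times as wide as the combined peak at the median in replicate 1 (quartiles 0.79 and 1.01) and 0.95 times in replicate 2 (0.80 and 1.01). Between the replicates the start differed by 50 bp or less in 248 of the 439, or 56.5%, and the end in 227, or 51.7%. The ratio of width in replicate 2 to width in replicate 1 had a median of 1.00 (quartiles 0.94 and 1.10). The width of 1 kb or more was kept in 311 peaks of replicate 1, in 318 of replicate 2 and in 272 in both at once, which was 62.0% of the 439. Peaks were chosen by their width in the combined list, so these replicate widths are a description and not a test.

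The replicate lists had broad peaks of their own, 532 in replicate 1 (8.89% of its list) and 609 in replicate 2 (8.70%). Of these, 497 in replicate 1 and 543 in replicate 2 touched a broad combined peak. A further 35 and 64 touched narrower combined peaks alone, and 2 peaks of replicate 2 touched none. Conversely, 45 in replicate 1 and 69 in replicate 2 spanned 2 or more combined peaks, so stretches given as separate in the combined list could also be 1 peak in a replicate. The widest replicate 1 peak without a broad combined partner lay on chromosome II from 4762665 to 4764527, was 1863 bp wide and held 2 combined peaks of at most 885 bp. The widest such peak of replicate 2 lay on X from 4045873 to 4050917, was 5045 bp wide with a low score of 164, and held 4 combined peaks of at most 743 bp. Between the replicates, 403 of the 532 touched a peak of 1 kb or more of replicate 2, or 75.8%, and 402 of the 609 touched one of replicate 1, or 66.0%.

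Matched broad peaks stood high in the replicate lists. The best replicate peak inside a broad peak had a median percentile by score of 89.7 in replicate 1 and 91.2 in replicate 2, compared with 46.4 and 46.8 for narrower peaks. In the replicate lists many of the strongest peaks are tied at a score of 3100. In replicate 1 a score of 3100 or more was reached inside 114 of 752 matched broad peaks, or 15.2%. It was reached inside 8 of 5003 matched narrower ones, or 0.16%, and inside 2.12% of all matched combined peaks. In replicate 2 it was reached inside 214 of 808 matched broad peaks, or 26.5%. There it was reached inside 22 of 5891 matched narrower ones, or 0.37%, and inside 3.52% of all. A difference was also present within ranges of the combined score. In the highest score range the median best score was 2592 in broad and 1102 in narrower peaks in replicate 1, and 3100 and 1531 in replicate 2. By width class the median best score ran from 692 at 1000 to 1199 bp to 2116 at 3000 bp or more in replicate 1. In replicate 2 it ran from 934 to 3100. The best score is the highest of all overlapping replicate peaks, and wider peaks held more of them. The scales of the lists differ too, so these values are not set against the combined score.

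The widest peaks show these patterns one by one. Here and below, arm and centre are the outer and middle parts of a chromosome cut into parts of equal length. They are not the published recombination domains, so a peak labelled arm may lie in the centre by those borders. The widest peak of all lay on the right arm, so defined, of chromosome I from 10207567 to 10219249. It was 11683 bp wide, with a combined score of 31.31, rank 3061. Replicate 1 had no peak in it, but its nearest peak lay only 135 bp away. Replicate 2 had 2 peaks that filled 99.99% of it, the higher with a score of 2901. The next, 11130 bp at the right end of the same chromosome, where the ribosomal RNA gene repeats are known to lie, was a single peak in each replicate and was covered to over 99.9% in both. A peak of 9302 bp in the centre of chromosome V was likewise a single peak in each, covered to 100% in both. The peak of 11006 bp on the right arm of X was cut into 4 in replicate 1 and 2 in replicate 2, yet stayed covered to 96.9% and 98.2%.

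Others held several replicate peaks. On the left arm of chromosome II, a combined peak from 3159607 to 3168461 of 8855 bp, with a score of 19.55, held 11 peaks of replicate 1 and 11 of replicate 2, the most of any broad peak in each. They covered 77.6% and 56.6% of it, and the highest of them scored 482 in replicate 1 and 674 in replicate 2. Near the right end of chromosome III, 2 broad peaks lay 102 bp apart, from 13584141 to 13592183 (8043 bp) and from 13592286 to 13599144 (6859 bp). The first held 6 peaks of replicate 1 and 9 of replicate 2, and the second 4 and 5. The remaining 3 of the 10 widest, all on chromosome V, were 6844, 6692 and 6675 bp wide, had combined scores of 35.24, 37.39 and 45.18, and were each a single peak in each replicate. Of these 10, 8 scored below the broad median of 59.1. The widest peak of chromosome IV, from 14475835 to 14481081, measured 5247 bp, scored 137.4 and was a single peak in each replicate.

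**Figure D3:**
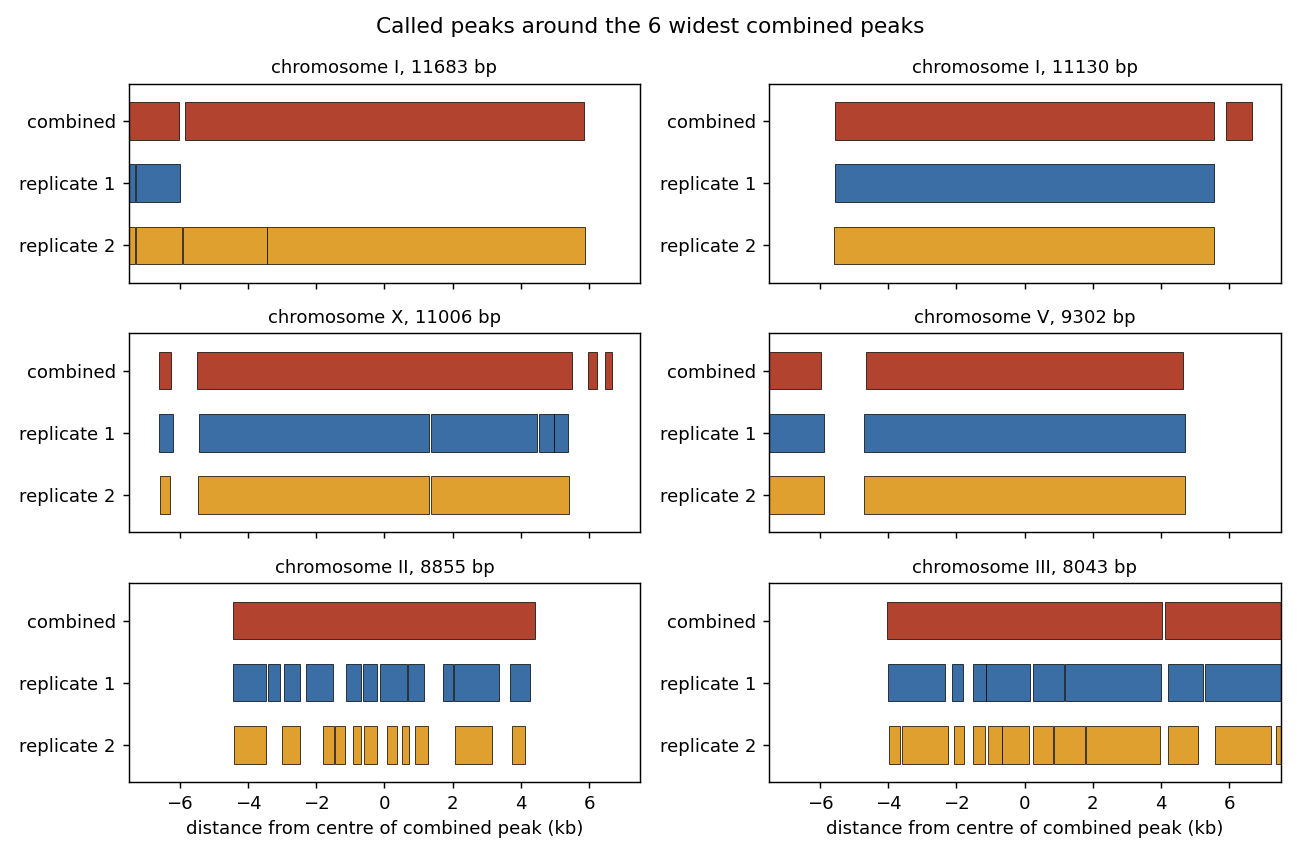
Peaks of the combined list (red), ChIP replicate 1 (blue) and ChIP replicate 2 (orange) around the 6 widest combined peaks, drawn to scale as distance in kb from the centre of the combined peak. The peak of 11683 bp on chromosome I has no replicate 1 peak inside it, and that of 8855 bp on chromosome II holds 11 separate peaks in each replicate.

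The highest-scored broad peaks were of moderate width. On chromosome I a peak from 3930987 to 3932210 was 1224 bp wide and on X a peak from 11605159 to 11606502 was 1344 bp wide, both with a score of 161.4 and rank 2. Those of chromosomes III, IV and V measured 1504, 1645 and 2068 bp, with scores of 160.4, 159.59 and 154.29. Only that of chromosome II was long, 5391 bp from 15137668 to 15143058, with a score of 149.21. All 6 were matched in both replicates, the peak of chromosome V by 2 pieces in each and the others by 1.

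More broad peaks were found in replicate 2 alone than in replicate 1 alone, 73 and 17, and so were peaks of the whole list, 1677 and 733. The list of replicate 2 was also the longer, with 7001 peaks against 5981 in replicate 1. Of the 73, 23 were 2000 bp or wider, and of the 17 none were, where 203 of all 838 broad peaks were. Their median combined score was 16.5, but the best replicate 2 peak inside them had a median percentile of 85.2 in its own list. In 55 of the 73, replicate 2 peaks covered at least 90% of the bases, so most were complete calls in replicate 2. The nearest replicate 1 peak lay 5900 bp away at the median (quartiles 836 and 13891). Picked after their values were seen, the 9 of 3000 bp or more lay on chromosomes IV (4 peaks), X (4) and I (1). Besides the widest peak of all, they included X from 289817 to 295292 (5476 bp) and IV from 11070848 to 11075911 (5064 bp), each a single replicate 2 peak with a score of 3100. A pair of the X peaks were neighbours, from 10361057 to 10365306 and from 10365467 to 10369071, with the same best replicate 2 score of 955. The pair may thus be 1 peak in replicate 2, which was not checked. By chromosome, replicate 2 alone held 14.4% of the broad peaks of X (15 of 104) and 7.90% of those of the autosomes (58 of 734). Over all combined peaks these shares were 18.5% on X and 13.4% on the autosomes, so X was the higher there too. Each replicate is 1 library and depth is unknown, so a peak missing from replicate 1 cannot be told from one below its calling limit.

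The 13 broad peaks found in neither replicate list were weak, with scores from 4.72 to 7.98 and widths from 1002 to 1713 bp. The highest-scored was on X from 4246264 to 4247526, with a score of 7.98. The next 4 were 3 on the left arm of chromosome I, with scores of 7.76, 7.41 and 7.05, and 1 in the centre of IV with 7.51. Of the 13, 4 lay in a dense run, meaning at least 10 combined peaks with gaps of at most 1500 bp, where 50 of all 838 broad peaks did.

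Broad peaks lay on all 6 chromosomes, with 171 on V, 152 on IV, 146 on III, 138 on I, 127 on II and 104 on X. Per Mb the order was different: III had 10.6, I 9.16, IV 8.69, II 8.31, V 8.17 and X 5.87. The share of a chromosome's peaks that were broad ran from 5.98% on X (Wilson 95% interval 4.96 to 7.20) to 7.99% on V (6.92 to 9.22), and the intervals of neighbours in this order overlapped. X thus had a broad share of 5.98% and the autosomes together 7.27%, a ratio of 0.82. With chromosomes as the units the exact permutation p was 0.167, which is the smallest that 6 chromosomes allow, so this design cannot reach 0.05. In the replicate lists the ratio was 0.82 in replicate 1 (exact p = 0.5) and 0.96 in replicate 2 (exact p = 1). In the combined list broad peaks of X also had the lowest median score of any chromosome, 36.2, and those of IV the highest, 81.1. In the replicate lists the lowest median of their own broad peaks was on V, 1131 in replicate 1 and 1660 in replicate 2. X had 1456 and 2124 there, and the highest was on IV in replicate 1 and on I in replicate 2. Median widths in the combined list lay between 1360 bp on I and 1532 bp on II. Chromosome V combined the highest share of broad peaks with a median score of 44.7. In the replicate lists the share was likewise highest on V in both, at 11.0% and 10.7%.

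Position along the chromosome was not used to choose the peaks. Arms were the outer parts and the centre the middle part when each chromosome was cut into 3 parts of equal length. On the arms lay 557 of the 838 broad peaks, or 66.5%, and 66.2% of the narrower ones. The log2 odds that a peak was broad, arms over centre, averaged 0.03 ± 0.24 (SD over 6 chromosomes). Flipping the signs of the 6 chromosome values in every way, an exact two-sided test, gave p = 0.75, where the smallest possible is 0.03125. The interval from inverting that test reached from -0.20 to 0.38, and values inside these bounds could not be told from the measured one. The odds were above 0 on X (0.38) and V (0.25) and below it on I, II, III and IV, with -0.20 on IV the lowest. In the replicate lists the mean was 0.11 ± 0.32 in replicate 1 (exact p = 0.438) and 0.19 ± 0.42 in replicate 2 (exact p = 0.344). Chromosome II had odds of -0.15 in the combined list but 0.52 in replicate 1 and 0.67 in replicate 2. X had the same sign in all 3 lists, at 0.38, 0.36 and 0.70, and I was negative in all 3. On chromosome II the arms themselves differed in number, with 23 broad peaks on the left arm and 57 on the right. Narrower peaks of chromosome II were also more numerous on the right arm, so part of this difference is shared by the whole list.

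**Figure D4:**
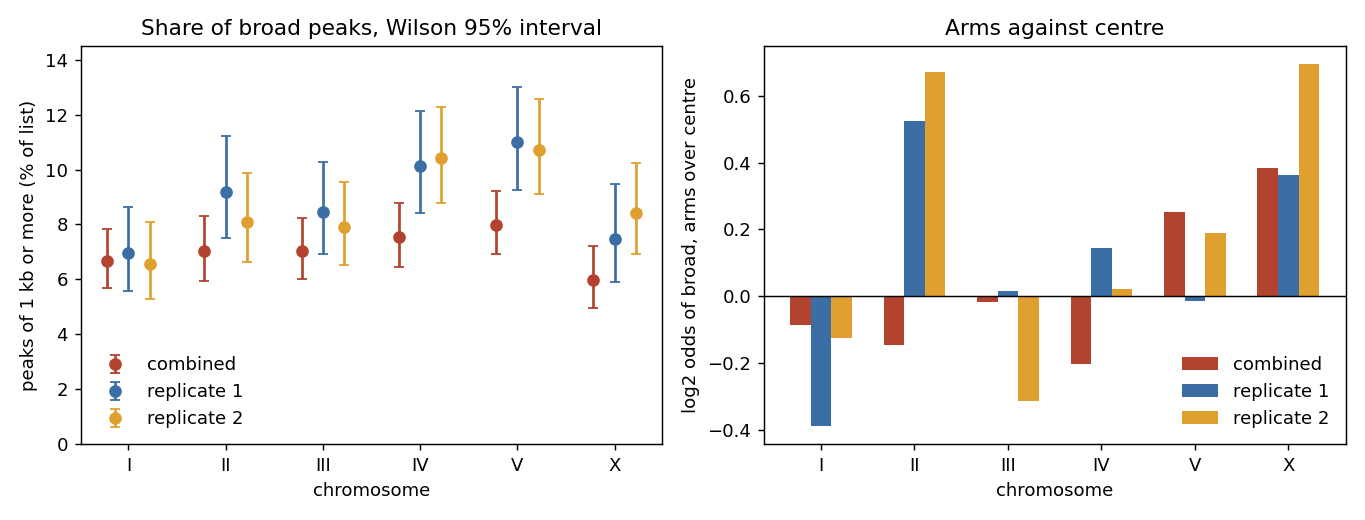
Left, percent of each chromosome's peaks that are 1 kb or more wide in the combined list (red), replicate 1 (blue) and replicate 2 (orange), with Wilson 95% intervals. Right, log2 odds that a peak is broad on the arms over the centre in the same lists. X has the lowest combined share, 5.98%, and the sign of the odds differs between lists on chromosomes II, III, IV and V.

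The gap to the nearest combined peak had a median of 443.5 bp (quartiles 163 and 2298), against 1209 bp (367 and 3882) for narrower peaks, measured from edge to edge. In each of the 4 score ranges the broad median was the shorter, from 236.5 bp against 1084 bp in the lowest to 491.5 bp against 1355 bp in the highest. The values depend on which neighbours are counted: within the upper 50% of the combined list by score the medians were 2180 bp for broad and 3355.5 bp for narrower peaks. Between midpoints the difference vanished and the order turned, with 1779 bp for broad peaks and 1615.5 bp for narrower ones, since that distance includes the peak's own length. Spacing was not tested, because a caller that joins neighbouring calls changes width and spacing together. Another broad peak was the nearest neighbour in 149 of 838 cases, or 17.8%, where 7.08% of all combined peaks were broad.

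Among themselves broad peaks had a median gap of 25081.5 bp to the nearest broad peak. The chromosomes held 1 per 119.7 kb on average. That mean is not a distance to the nearest peak, so it cannot be compared directly with the median gap. Of the 838, 263, or 31.4%, had another within 5 kb. Whether this spacing differs from random placement was not tested. These 263 formed 108 groups, 29 of them with 3 or more peaks. The largest lay on the right arm of chromosome II from 13817691 to 13827664 and held 6 broad peaks within 9.97 kb, with scores from 103.54 to 132.44, all matched in both replicates. A second group on II, from 9807994 to 9823233, held 5 over 15.2 kb with scores of only 7.45 to 11.52, so groups of broad peaks occurred at both ends of the score range. The closest pair lay 51 bp apart on chromosome IV, from 13250381 to 13251671 and from 13251723 to 13252916, with scores of 4.7 and 19.18. Over 97 full windows of 1 Mb the median was 8 broad peaks (quartiles 6 and 10). The most, 19, lay between 6 and 7 Mb on chromosome V, beside 134 narrower peaks. The fewest, 1, lay between 8 and 9 Mb on X, beside 126 narrower peaks.

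**Figure D5:**
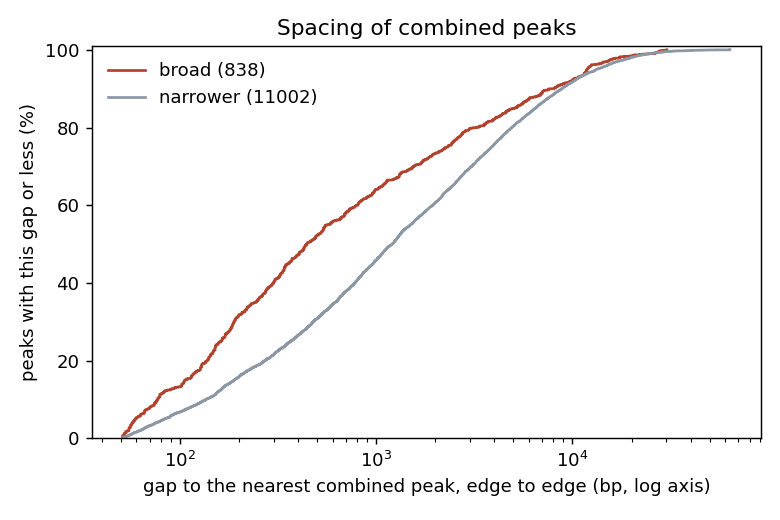
Cumulative percent of broad (red) and narrower (grey) combined peaks by the gap to the nearest combined peak, edge to edge, in bp on a log axis. The medians are 443.5 bp and 1209 bp, and no gap is shorter than 51 bp.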

How the data were processed

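Start, end and score of each peak were read from 3 deposited peak lists, with coordinates on WormBase WS220 per the file headers. The score is the authors' value per peak, its scale unnamed, used within a list only. The source column names MACS for each ChIP replicate and MACS v2 for the combined list. How the latter was made is not given in the sources used here, nor are its control and threshold. The submitters' processing notes name BWA and ce10. The lists hold no read counts, so depth is unknown. The 3 mitochondrial peaks were left out.

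Overlap meant 1 bp or more, and matches of broad peaks were identical in bedtools 2.31.1 (752 and 808). Chromosome length was the largest peak end over the 3 lists. Odds were computed with 0.5 added to each count. Chromosomes were the units of both exact tests. Shares have Wilson 95% intervals. Python 3.11.15, numpy 2.4.6, pandas 2.3.3, scipy 1.17.1 and matplotlib 3.10.9 were used, and the scripts were tested on simulated lists. Alternatives changed the width limit, score limits, the overlap rule, the arm borders and the list. Gene positions were not computed, for lack of an annotation of this build.

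The members and lists were chosen with earlier results of these data known. Peaks named are the 10 widest, the widest and highest-scored of each chromosome, those with most pieces, the 5 highest-scored in neither replicate list, the closest pair, those next to the limit, and the widest replicate peak without a broad partner; peak groups, windows and replicate 2 peaks were chosen after their values were seen.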

Additional observations from a re-analysis of the deposited data

How the results depend on the processing

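The share of broad peaks found in both replicate lists, 87.7%, kept within its interval under 4 of 8 alternatives. With only the upper 50% of combined peaks by score it was 92.5%, 75.7% when the midpoint had to lie in a replicate peak, 75.1% with the upper 50% of each replicate list and 61.8% with a reciprocal overlap of 50%. The covered share, 89.2%, was 92.7% at a width limit of 1500 bp, 94.3% at 2000 bp and 84.4% with the upper 50% of each replicate list; leaving out a replicate gave 87.1% to 91.4%. The split share, 26.4%, was 20.4% at a limit of 800 bp, 37.5% at 1500 bp, 43.7% at 2000 bp, 25.5% in the upper 50% of the combined list and likewise outside dense runs, and 13.0% with the upper 50% of each replicate list, whose weaker pieces are then missing; leaving out a replicate gave 25.8% to 27.0%. The median gap of 443.5 bp was 2180 bp in the upper 50% of the combined list, which holds fewer neighbours, 1779 bp between midpoints and 25081.5 bp to the nearest broad peak. The arm to centre log2 odds, 0.03, turned to -0.10 at 800 bp (exact p = 0.344), -0.087 at 1500 bp (exact p = 0.25), -0.11 at 2000 bp (exact p = 0.25), -0.069 with published recombination domains (exact p = 0.656) and -0.041 over the 5 autosomes (exact p = 0.688, where 0.05 cannot be reached), and passed the threshold in none of 10 alternatives; the cause was not tested. Under 8 alternatives the broad share of X over that of the autosomes ran from 0.71 to 0.97, in a test that cannot pass the threshold. Of 27 named broad peaks, 21 were found in both replicate lists by 1 bp, 20 by midpoint and 16 by reciprocal overlap. Leaving out a replicate gives no value for a match in both lists. No paired analysis was possible because input and ChIP carry the same numbers but the analysed lists are of ChIP only.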

Other observations

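The 3 mitochondrial peaks of the combined list, which the choice of nuclear chromosomes leaves out, were all wider than 1 kb. They measured 10377, 1130 and 1367 bp, with combined scores of 16.2, 7.83 and 17.14, and neither replicate list holds a peak there.

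The tied top scores of the replicate lists belonged mostly to wide peaks. Of the 118 replicate 1 peaks at 3100 or more, 110 were 1 kb or wider, and so were 216 of the 229 in replicate 2. Over the whole lists 8.89% of peaks in replicate 1 and 8.70% in replicate 2 were that wide.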
